A study of Mus musculus with 6 samples.

Results

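Ighm encodes the heavy chain of immunoglobulin M. Of the 8 genes grouped with it, most encode further parts of the B cell receptor or proteins that build it or carry its signal. Ms4a1 and Pax5 encode a surface protein and a transcription factor of B cells, and are counted among the receptor genes for short. The 9 genes (Ighm, Cd79a, Cd79b, Vpreb1, Syk, Btk, Blnk, Ms4a1 and Pax5) were found by symbol among 19938 genes that the array's gene table gives alone for a probe set, and each was measured, by 11 probe sets in all. Ighm had 3 of these probe sets and every other gene had 1. Ighm was chosen by its higher value after PJ34 on these same arrays, and the other genes were added for their known role with the results in view. The levels and changes of the 9 genes are therefore given as a description, and no test of them is used as evidence.

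Arrays were made from C1498, a mouse cell line on a C57BL/6J background that its label names as AML cells. In the PJ34 group, 3 samples had been given the PARP-1 inhibitor PJ34 at 20 μM for 48 h, and in the PBS group 3 samples had been given PBS for the same 48 h. Both groups were grown in the same medium, carried no other agent or engineered allele by their labels, and came from 1 line, so that other AML cells were not sampled. Array medians over 35556 probe sets lay between 4.41 and 4.46 on the log2 scale, and any pair of arrays correlated at 0.992 to 0.995.

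On a B cell, heavy and light chains form the antigen-binding part of the receptor, which has no signalling tail of its own. Cd79a and Cd79b pair beside it and carry the tyrosine motifs that are phosphorylated when antigen binds. The kinase Syk docks on these motifs, and through the adaptor Blnk the kinase Btk and a phospholipase are brought in to raise calcium. In pre-B cells, which have not yet made a light chain, Vpreb1 forms part of a surrogate light chain. Ms4a1 encodes the surface protein CD20, and Pax5 is the transcription factor that holds cells in the B lineage. The constant region of the heavy chain locus can also be transcribed when no variable segment has been joined to it, and arrays of this kind do not separate such transcripts from others.

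With PJ34, 1 of the 3 Ighm probe sets was 3.18-fold higher, while the differences of the 10 other probe sets lay between -0.03 and 0.09 on the log2 scale. Probe set 10403069 of Ighm had log2 expression values of 4.68, 4.54 and 4.59 on the PJ34 arrays, against 2.59, 3.39 and 2.83 on the PBS arrays. The groups did not overlap, with 1.15 between the lowest PJ34 and the highest PBS value. The PJ34 values lay within 0.14 of each other, while the PBS values spread over 0.81, with PBS replicate 2 above the other PBS arrays. The difference, PJ34 minus PBS, was 1.67 on the log2 scale (SE 0.18, 95% interval 1.27 to 2.07), and the interval of the fold was 2.41 to 4.2. These values come from limma, which pools the spread over probe sets, and the methods' t-test gave a larger SE of 0.24. By limma the SE of this probe set was larger than that of 99.4% of the 23410 probe sets compared. Without PBS replicate 2 the difference was 1.90 (SE 0.097), and without PBS replicate 1 it was 1.50 (SE 0.16). This probe set had a position at the 23.0 percentile of the table in PBS cells and at the 52.6 percentile in PJ34 cells. RMA values near the bottom of the scale hold a share of background that was not measured here, so a fold change there can understate the change in transcript.

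The other probe sets of Ighm gave no such difference. Probe set 10402864 had values of 3.61, 3.61 and 3.66 on the PJ34 arrays and 3.62, 3.56 and 3.53 on the PBS arrays. Its difference was 0.06 (SE 0.062, 95% interval -0.08 to 0.20), and its groups overlapped. Probe set 10402991 had values of 4.14, 4.11 and 4.15 on the PJ34 arrays and 4.12, 4.10 and 4.27 on the PBS arrays, a difference of -0.03 (SE 0.069, 95% interval -0.19 to 0.13). Neither interval reached the interval of probe set 10403069. The gene table matches the 3 probe sets to different transcript records. It lists 6 records for probe set 10403069, of which 1 is shared with probe set 10402864 and 0 with probe set 10402991. Which part of the locus each probe set reads is not given by the table, so the 3 values are kept apart.

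**Figure D1:**
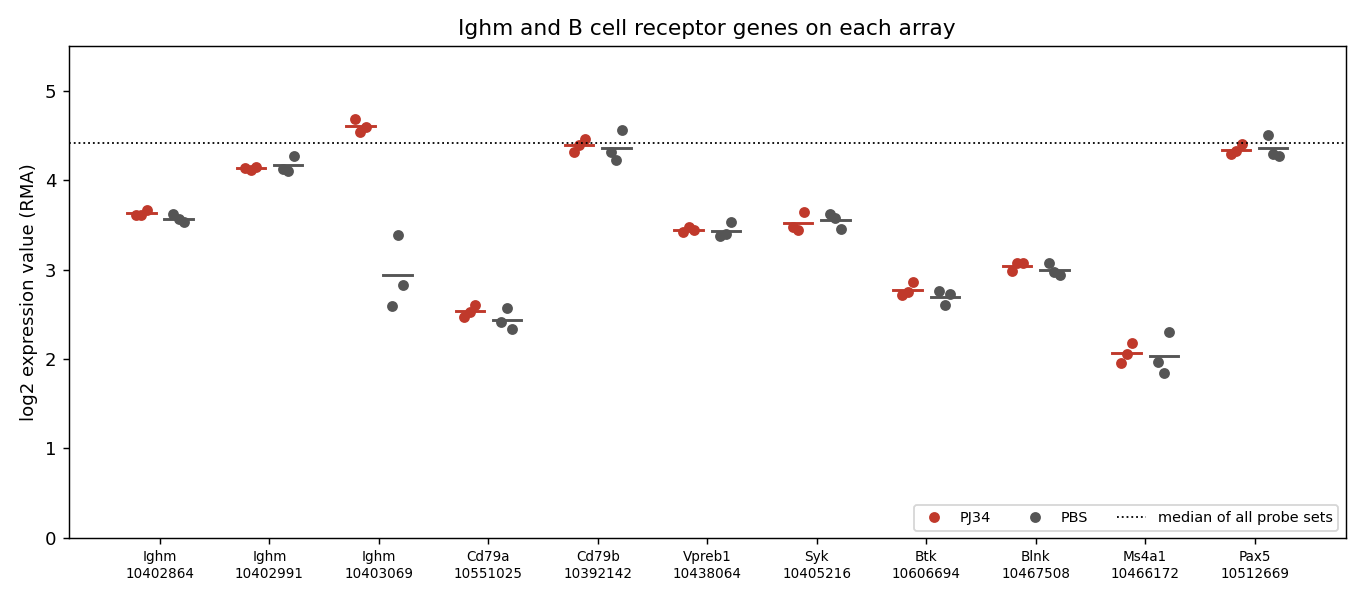
Log2 expression value (vertical axis) of each probe set of Ighm and the receptor genes on the 3 PJ34 (red) and 3 PBS (grey) arrays, with lines at the group means and a dotted line at the median of all probe sets, 4.42. Only Ighm probe set 10403069 has groups that do not overlap, with means of 4.61 in PJ34 cells and 2.94 in PBS cells.

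Of the signalling partners of the heavy chain, Cd79a had values of 2.47, 2.53 and 2.60 with PJ34 and 2.41, 2.57 and 2.34 with PBS. The difference was 0.09 (SE 0.078, 95% interval -0.09 to 0.27), inside the spread of the PBS arrays. Cd79b had values of 4.31, 4.39 and 4.46 with PJ34 and 4.31, 4.22 and 4.56 with PBS, a difference of 0.02 (SE 0.095, 95% interval -0.20 to 0.24). Both genes thus had overlapping groups on the arrays where Ighm probe set 10403069 was 3.18-fold higher. Vpreb1, of the surrogate light chain, averaged 3.45 ± 0.034 with PJ34 and 3.43 ± 0.088 with PBS (SD, n = 3 each), a difference of 0.02 (95% interval -0.14 to 0.17).

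The kinases and the adaptor downstream of the receptor differed as little between the groups. Syk averaged 3.52 ± 0.104 with PJ34 and 3.55 ± 0.087 with PBS (SD, n = 3 each), a difference of -0.03 (95% interval -0.21 to 0.15). Btk averaged 2.77 ± 0.080 with PJ34 and 2.70 ± 0.086 with PBS, a difference of 0.08 (95% interval -0.09 to 0.24). For Blnk the means were 3.04 ± 0.053 with PJ34 and 2.99 ± 0.072 with PBS, a difference of 0.04 (95% interval -0.11 to 0.20). In each of these 3 genes the PJ34 and PBS values overlapped. Ms4a1, the lowest in the table of the 9 genes at the 9.1 percentile in PBS cells, averaged 2.06 ± 0.117 with PJ34 and 2.04 ± 0.238 with PBS. Its difference of 0.03 had the widest interval of the 10 other probe sets, -0.25 to 0.30. Pax5 averaged 4.34 ± 0.055 with PJ34 and 4.35 ± 0.126 with PBS, a difference of -0.01 (95% interval -0.19 to 0.17).

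By limma's adjusted p, with a threshold of 0.05, 1 of the 11 probe sets was higher with PJ34 and 0 lower, where 1.72% of the 23410 probe sets compared were higher and 1.34% lower, 3.06% in all. Groups did not overlap in 1 of the 11, against 23.5% of all probe sets compared. Ighm was chosen on this contrast, so nothing is read from these counts. The median difference was 0.026 over the 11 probe sets and 0.003 over all compared. The 10 other probe sets had differences of -0.03 to 0.09, 7 of them above 0 and 3 below. Their 95% intervals all lay between -0.25 and 0.30, or 0.843-fold and 1.23-fold, which bounds what these arrays allow for each and does not show that nothing changed.

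**Figure D2:**
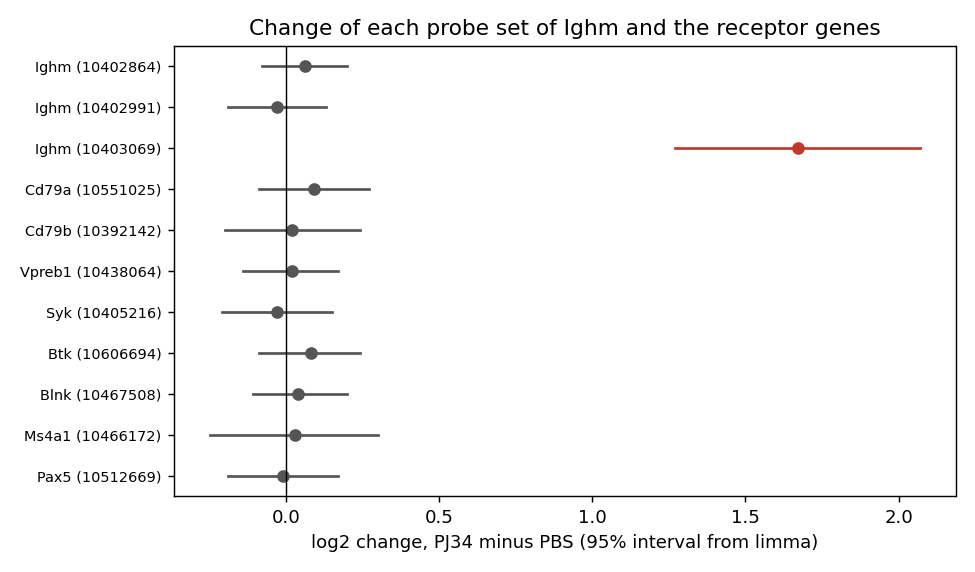
Difference in log2 value, PJ34 minus PBS (horizontal axis), with its 95% interval from limma for each probe set of Ighm and the receptor genes. Ighm probe set 10403069 (red, 1.67) stands apart, and the other 10 intervals (grey) all include 0.

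In PBS cells all 11 probe sets had means below the table median of 4.41, from the 9.1 to the 49.2 percentile with a median at 31.8. Positions and the table median are taken over all 35556 probe sets, of which only 23410 are named by the gene table. The probe sets of Cd79a, Btk, Blnk and Ms4a1 had means under 3.051 over the 6 arrays, among the dimmest of the table. On the PBS arrays alone, Ighm probe set 10403069 also had a mean under that value, 2.94, below the 2.99 of Blnk. Over all arrays the values ran from 1.84 for Ms4a1 to 4.68 for Ighm. Probe sets differ in how strongly they bind their targets, so these positions do not order the genes by transcript number, and the deposited values carry no detection calls. In RNA from a whole culture, a change in the number of cells that express a gene and a change in RNA per cell cannot be told apart.

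The other immunoglobulin genes differed less between the groups than Ighm probe set 10403069. A further 28 probe sets carry symbols of the immunoglobulin loci, and 12 of them name a single gene. Segments of these loci are close in sequence, so probe sets with several symbols cannot be assigned to 1 gene. The 7 of the heavy chain locus, each with the symbol Igha or Ighg3, had differences of -0.22 to 0.16 with a median of 0.04. The 19 of the kappa light chain ran from -0.17 to 0.37, and the 2 of the lambda light chain were at 0.06 and 0.24. Of all probe sets compared, 3.06% passed limma at an adjusted p under 0.05. At an unadjusted p under 0.05, 8.95% were higher and 7.74% lower. None of the 28 passed limma after adjustment, with 2 at an unadjusted p under 0.05 and 0 called by the methods' t-test after adjustment. The highest, probe set 10545194 of more than 1 kappa variable segment, was named after its value was seen, at 0.37 (SE 0.088, adjusted p = 0.0656 from limma), and passed with a trended robust prior (adjusted p = 0.0416). In PBS cells 27 of the 28 lay below the table median.

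**Figure D3:**
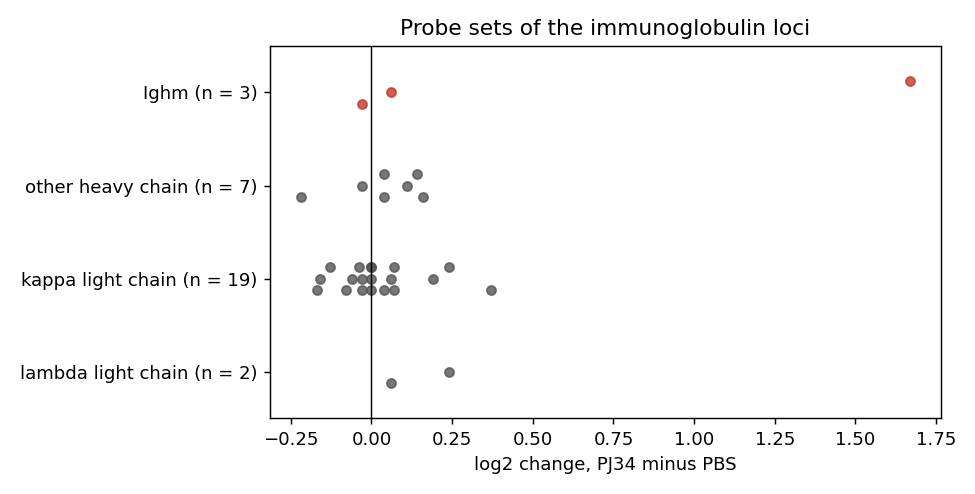
Difference in log2 value, PJ34 minus PBS (horizontal axis), of each probe set of the immunoglobulin loci, 1 point per probe set, with Ighm in red and the other heavy chain, kappa and lambda probe sets in grey. The highest of the 28 grey points is at 0.37, against 1.67 for the highest Ighm point.

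Further genes of B cell receptor signalling were then compared. Of 35 listed genes 30 were measured, and the other 5 were not analysed here. None of the 30 passed limma in either direction, with 0 by the methods' t-test after adjustment. At an unadjusted p under 0.05, 7 were higher and 0 lower, where 8.95% of all probe sets compared were higher and 7.74% lower. Whether the list differs from other genes was not tested. The median difference of the 30 genes was 0.06, against 0.003 over all probe sets compared. Plcg2, the phospholipase of B cells that makes calcium-releasing messengers, had values of 4.90, 4.92 and 4.98 with PJ34 and 4.82, 4.80 and 4.75 with PBS. Its difference of 0.14 (SE 0.061) did not pass (adjusted p = 0.286 from limma), although the groups did not overlap. Ptpn6, the phosphatase SHP-1 that damps receptor signals, had values of 6.16, 6.14 and 6.04 with PJ34 and 5.81, 5.89 and 5.79 with PBS, a difference of 0.28 (SE 0.066, adjusted p = 0.064 from limma). With a trended robust prior Ptpn6 passed, as did 3 genes named after their values were seen, the transcription factor Nfatc1 (0.27), the lipid phosphatase Inpp5d (0.22) and the PI3 kinase subunit Pik3r1 (0.22). Many genes of this list serve other receptors too, and 19 of the 30 lay above the table median in PBS cells.

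Of 22 genes of early B cells and the pre-B cell receptor, 1 rose and 0 fell by limma. The median difference was 0.01, and of all probe sets compared 1.72% were higher and 1.34% lower. The riser was Il7r, the interleukin 7 receptor of early B and T cells, at 4.30, 4.72 and 4.56 with PJ34 and 3.40, 3.53 and 3.82 with PBS (difference 0.94, SE 0.13, adjusted p = 0.00928 from limma). The groups of Il7r did not overlap, and its call held whichever array was left out, but not with all 35556 probe sets in the fit or by the methods' t-test. Igll1, the partner of Vpreb1 in the surrogate light chain, averaged 4.12 with PJ34 and 4.09 with PBS, a difference of 0.03 (SE 0.089). Rag1, which cuts immunoglobulin and T cell receptor genes for joining, averaged 3.12 with PJ34 and 3.12 with PBS. Ebf1, a B lineage factor, averaged 2.70 with PJ34 and 2.63 with PBS, a difference of 0.07 (SE 0.086). Rag1 and Ebf1 lay at the 26.4 and 17.9 percentiles of the table in PBS cells.

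Among 21 mature B cell markers, 1 rose and 0 fell by limma, with a median difference of -0.03. Of all probe sets compared, 1.72% were higher and 1.34% lower. In PBS cells 15 of the markers lay below the table median. The gene that rose was Cd37, a tetraspanin of B cells that other leukocytes also make. It had values of 8.80, 8.77 and 8.84 with PJ34 and 8.51, 8.39 and 8.56 with PBS, a difference of 0.32 (SE 0.068, adjusted p = 0.0465 from limma). It did not keep this call when any 1 of the 6 arrays was left out. Of 13 plasma cell genes, 0 rose and 0 fell by limma, with 0 called by the methods' t-test after adjustment. At an unadjusted p under 0.05 from limma, 2 were higher and 1 lower. Of all probe sets compared, 8.95% were higher and 7.74% lower at that threshold.

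The positions of markers of other blood cells in the table were also read in PBS cells. Of 23 T and NK cell markers, 10 lay above the table median, with positions from the 6.3 to the 98.3 percentile and a median at 49.3. Genes of this list are named here after their values were seen. Above the median lay the T cell receptor subunits Cd3g (98.3), Cd3e (97.0) and Cd3d (55.9). So did Gata3 (92.5), Klrd1 (83.1), Lat (81.7), Zap70 (80.4), Bcl11b (69.9), Klrk1 (56.5) and Prf1 (52.2). The other 13 did not, among them the subunit Cd247 (43.6) and the coreceptors Cd8a (49.3) and Cd4 (39.3). Of 22 myeloid markers, 5 lay above the table median, with positions from 8.2 to 76.3 and a median at 36.5. The 5 were the Fc receptors Fcgr3 (76.3) and Fcgr1 (74.9), the transcription factors Cebpa (57.5) and Cebpe (56.1), and Cd68 (54.6), while the granule enzymes Prtn3, Mpo and Elane lay at 43.3, 40.3 and 36.3. Since such positions do not order genes by transcript number, they do not settle the lineage of the cells, and the label of the line as AML cells was kept.

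T and NK cell markers and myeloid markers were also compared between the groups, beside the change of Ighm. Of the 23 T and NK cell markers, 3 rose and 1 fell by limma, with a median difference of 0.03. Of all probe sets compared, 1.72% were higher and 1.34% lower, and whether either list differs from that was not tested. The coreceptor Cd4 rose by 0.62 (SE 0.062, adjusted p = 0.00246 from limma), the protease Gzma by 0.90 (SE 0.14, adjusted p = 0.0139) and the T cell transcription factor Gata3 by 0.34 (SE 0.061, adjusted p = 0.0256), while the transcription factor Bcl11b had a difference of -0.33 (SE 0.067, adjusted p = 0.0395). Cd4 kept its call in all alternatives, and Gzma, Gata3 and Bcl11b lost theirs in 4, 5 and 6 of the 6 fits without 1 array. The mean level of the 23 markers was 5.33 to 5.34 on the PJ34 arrays and 5.25 to 5.27 on the PBS arrays. Of the myeloid markers, the Fc receptor Fcgr1 (0.63, SE 0.073, adjusted p = 0.00488 from limma) and Cd68, a lysosomal protein of macrophages (0.51, SE 0.097, adjusted p = 0.0309), rose and 0 fell. Fcgr1 lost its call only by the methods' t-test, and Cd68 lost its call when any 1 array was left out. The mean level of the 22 myeloid markers was 3.86 to 3.96 on the PJ34 arrays and 3.79 to 3.84 on the PBS arrays. Their median difference was 0.04, and the mean levels of both lists include the genes called. The part of either cell type in the change of Ighm was not tested.

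**Figure D4:**
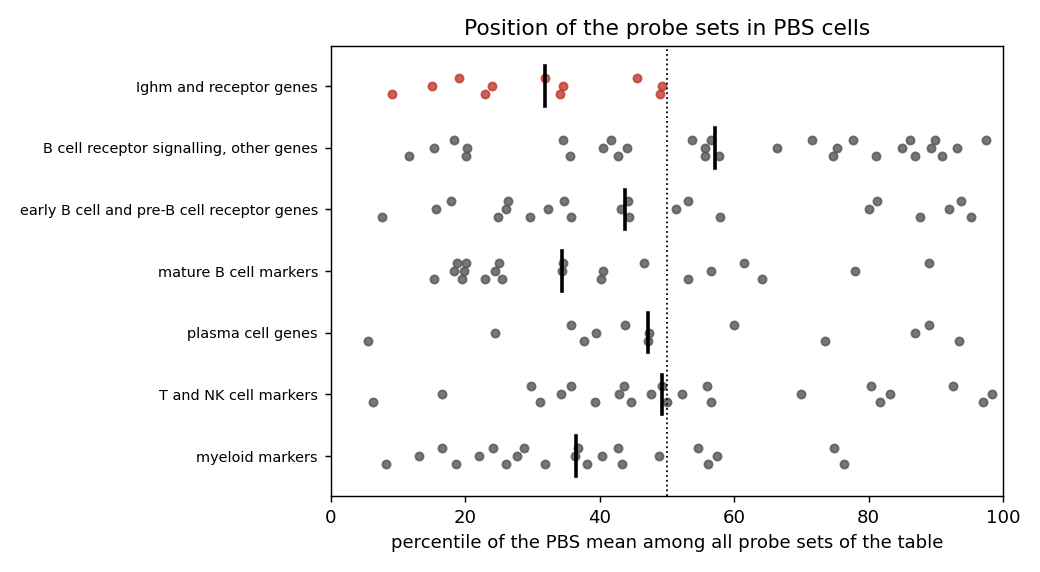
Percentile of the PBS mean among all 35556 probe sets (horizontal axis) for the 11 probe sets of Ighm and the receptor genes (red) and for the genes of 6 lists (grey), with black bars at the medians and a dotted line at 50. All 11 red points lie below 50, and the T and NK cell markers run from 6.3 to 98.3.

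The probe sets most like Ighm probe set 10403069 were sought over the 6 arrays by the root mean square difference of log2 values, each taken as a deviation from its own PBS mean. Among 21788 probe sets with a single gene, the nearest were the T cell surface protein Cd7 (0.238), the linker histone H1f2 (0.254), the lymphocyte adaptor Sla (0.274), the costimulatory receptor Cd28 (0.288) and the core histone H2bc4 (0.326). Cd7 had values of 9.27, 9.25 and 9.37 on the PJ34 arrays, against 7.61, 7.65 and 7.66 on the PBS arrays. The median distance was 1.21, and the other 10 receptor probe sets lay 1.13 to 1.23 away. The measure follows the size of the change, so it mostly finds probe sets with a similar rise. The log2 differences were 1.66 for Cd7, 1.53 for H1f2, 1.42 for Sla, 1.44 for Cd28 and 1.45 for H2bc4. These 5 lay between the 78.6 and 95.8 percentiles of the table in PBS cells, against 23.0 for Ighm. Their PBS values had an SD of 0.024 to 0.131, against 0.414 for Ighm.

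**Figure D5:**
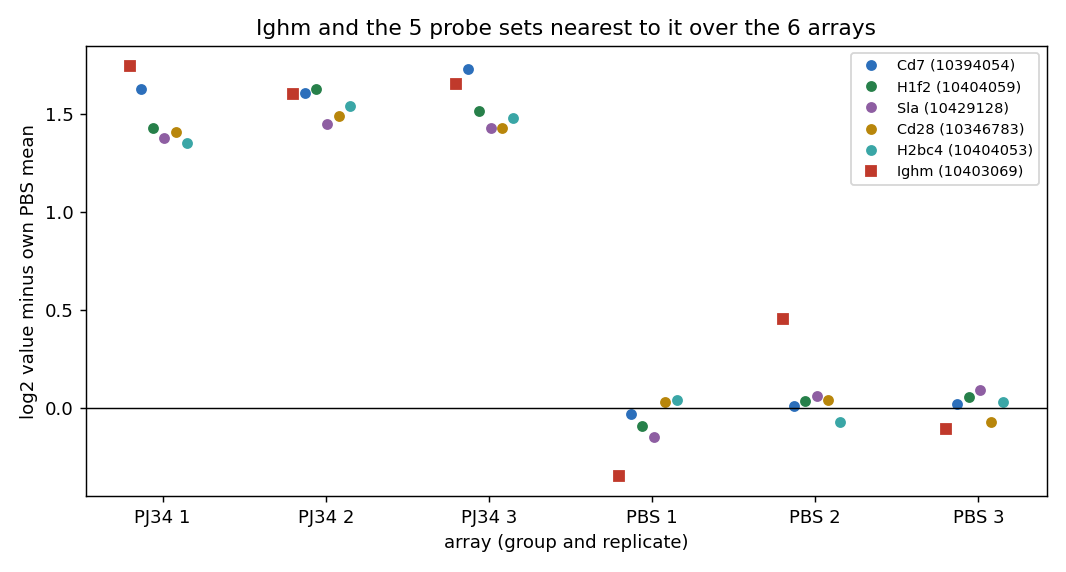
Log2 value minus the probe set's own PBS mean (vertical axis) on each of the 6 arrays (horizontal axis) for Ighm probe set 10403069 (red squares) and the 5 probe sets nearest to it (circles). Ighm shows the widest spread among the PBS arrays, where PBS replicate 2 is highest.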

How the data were processed

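RNA from 3 PJ34 and 3 PBS samples of C1498 cells was hybridised to Affymetrix Mouse Gene 1.0 ST arrays, and samples were grouped by their labels. The authors deposited log2 expression values, made with RMA in Affymetrix Expression Console 1.3.1 by the submitters' processing notes, a method that corrects background, equalises the arrays by quantiles and gives each probe set 1 value. The genome build was not given in the sources used here. The gene table names 23410 of 35556 probe sets, 21789 by 1 symbol and 1621 by several. These 23410 were compared on the values as deposited with limma 3.58.1 in R 4.3.3 (PJ34 minus PBS, Benjamini-Hochberg adjustment), after the fit was tested on simulated data. The arrays are described as independent experiments, which are not described further, so p-values measure only the spread between these arrays, and their number limits the precision. An exact two-sided permutation test of 3 against 3 cannot go below 0.1.

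Members and lists were chosen with earlier results of these data known. Lists used 1 probe set per gene, that with the highest mean over the 6 arrays. All 9 receptor genes are named, and of the lists the genes called (up to 5 a list), a set of fixed genes and the 5 probe sets nearest to Ighm. Alternatives were other sets of probe sets, median centring, a trended robust prior, leaving out the dimmest probe sets (mean under 3.051), the methods' t-test, the replicate number as a block and leaving out each array.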

Additional observations from a re-analysis of the deposited data

How the results depend on the processing

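Ighm was chosen by its value on these same arrays, so refitting them adds no evidence for its change. The refits describe only how its value and call depend on the settings. The difference of Ighm probe set 10403069 stayed between 1.50 and 1.90 when 1 array was left out, and the probe set was called in 12 of 13 alternatives. The exception was the methods' t-test after adjustment, with the same difference of 1.67. The fit without the dimmest probe sets kept this probe set only through its PJ34 mean of 4.61. Its PBS mean of 2.94 lay under the cut of 3.051, so that fit is no check of its call. The 10 other receptor probe sets ran from -0.09 to 0.16 over all alternatives and were called in 0. Without the dimmest probe sets, Cd79a, Btk, Blnk and Ms4a1 were not compared. Counts over all probe sets, 402 higher and 314 lower, depended on the fit. They were 112 and 76 with all probe sets of the table, 1008 and 920 with a trended robust prior, 78 and 62 with the methods' t-test, and 143 to 281 and 79 to 320 without 1 array. With the replicate number as a block they were 219 and 140. Correlations of deviations were -0.0131, 0.131 and -0.00893 for arrays of the same number 1, 2 and 3. The highest was 0.145, for PJ34 replicate 3 with PBS replicate 1. With 3 arrays a group, such correlations cannot show whether arrays of the same number belong together.

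Of the signalling list 4 genes were higher with the trended robust prior and 2, Ptpn6 and Nfatc1, without the dimmest probe sets, and 0 without any 1 array. In the early B cell list 2 were higher with the trended robust prior, Il7r and Foxo1, 0 with all probe sets and 0 with the methods' t-test, and 1 without any 1 array. The mature B cell list had 0 higher with all probe sets, with median centring, with the methods' t-test, with the block and without any 1 array. In the plasma cell list 1 gene, Xbp1, was lower with the trended robust prior. The cause of these shifts was not tested.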
